A study of Mus musculus with 12 samples.

Results

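A1bg, Hao3, Sult3a1, Cux2 and Atp6v0d2 are 5 mouse genes whose liver transcripts were higher in female than in male wild-type (WT) mice, and that difference is the rule by which they were chosen from the 19852 genes of the deposited table. Of these, 4 matched by the symbol given and 1, Cux2, was listed under an older symbol, Cutl2, so that all 5 of 5 were found. The study compared livers of mice with lasting interferon-gamma expression with those of control littermates in both sexes by RNA sequencing. Libraries formed 4 groups of 3 each, all from C57BL/6 mice aged 20 weeks: female ARE-Del, female WT, male ARE-Del and male WT. ARE-Del mice lack an AU-rich element at the 3′ end of the interferon-gamma gene Ifng, an element known to shorten the life of that mRNA; the allele is in the germ line and so not limited to the liver. The genotype of each group is the one given in its sample labels, since the extraction text, which is the same for all 12 samples, names ARE-Del-/- mice only. Nothing in the labels beyond the number 3 says that the libraries of a group are separate animals, so p-values measure the spread between these libraries, which may be technical. That spread was estimated once for each gene over all 4 groups. Levels are given as RPKM, in which reads are divided by transcript length and by the reads of the library, and which can be compared between genes.

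Sex differences in mouse liver transcription mostly follow the pattern of pituitary growth hormone secretion, which comes in pulses in males and is nearly continuous in females. The hormone acts on hepatocytes through its receptor and the transcription factor STAT5b, and it keeps separate sets of female-biased and male-biased genes on. Among the 5 genes, Cux2 encodes a homeodomain transcription factor of female mouse liver that is known to repress some male-biased genes and to activate some female-biased ones. Sult3a1 encodes a cytosolic sulfotransferase, an enzyme that transfers sulfate from the donor PAPS to small molecules. Hao3, whose current symbol is Hao2, encodes a peroxisomal oxidase of 2-hydroxy acids. A1bg encodes alpha-1-B glycoprotein, a secreted plasma protein of the immunoglobulin superfamily. Atp6v0d2 encodes the d2 subunit of the membrane sector of the vacuolar proton pump (V-ATPase), best known from osteoclasts and macrophages.

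The libraries fitted their labels with 1 exception. Ifng had 0.208, 0.0898 and 0.238 RPKM in female ARE-Del and 0.0208, 0.0110 and 0.00957 RPKM in female WT livers. In males it had 0.0978, 0.123 and 0.0742 RPKM in ARE-Del and 0.0382, 0 and 0 RPKM in WT livers. All 6 ARE-Del libraries thus lay above all 6 WT libraries, at levels too low for the test across genes. The hepatocyte gene Alb averaged 24774 RPKM over the 12 libraries. Ddx3y, a Y-linked gene, was at 0 in all 6 female libraries and at 9.34 to 13.5 RPKM in the 6 male libraries. Xist, the RNA that coats the inactive X chromosome, was at 33.0 to 45.6 RPKM in 5 female libraries but at 0.0456 RPKM in the library labelled female ARE-Del 2. That library therefore goes against 1 mark of its sex label and not the other, and the members' results and the list counts that rest on it are also given without it. Summed RPKM ran from 173476 to 208647 per library and libraries of a group correlated at 0.993 to 0.996 across genes on the log2 scale.

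Sequence upstream of the start is shown for the 3 genes that were called lower in ARE-Del than in WT females, described further on. Those calls use the WT libraries that chose the genes, and that of A1bg held in 2 of 12 fits that left out 1 library. Nothing is therefore read from the 3 genes being lower together. Each line gives the 250 bases before the annotated start, 5′ to 3′ on the gene's strand, from RefSeq (build GRCm38.p6, not the mm9 build of the expression values). The windows are chr15:60921271-60921520 on the minus strand for A1bg, chr10:33857472-33857721 on the plus strand for Sult3a1 and chr3:98893231-98893480 on the minus strand for Hao3. Capitals mark a match to TTCNNNGAA, the core read by STAT factors, or to ATCAAT, the core read by Onecut and Cux homeodomain factors, on either strand.
A1bg: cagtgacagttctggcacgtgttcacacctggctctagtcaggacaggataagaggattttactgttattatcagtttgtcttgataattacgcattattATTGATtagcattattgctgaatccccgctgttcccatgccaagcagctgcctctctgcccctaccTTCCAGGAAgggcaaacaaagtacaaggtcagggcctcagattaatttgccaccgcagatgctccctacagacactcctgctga
Sult3a1: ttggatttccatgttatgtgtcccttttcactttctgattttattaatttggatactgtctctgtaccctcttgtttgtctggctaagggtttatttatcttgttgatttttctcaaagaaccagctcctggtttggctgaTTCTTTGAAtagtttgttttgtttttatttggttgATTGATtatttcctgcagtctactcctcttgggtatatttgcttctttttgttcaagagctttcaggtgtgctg
Hao3: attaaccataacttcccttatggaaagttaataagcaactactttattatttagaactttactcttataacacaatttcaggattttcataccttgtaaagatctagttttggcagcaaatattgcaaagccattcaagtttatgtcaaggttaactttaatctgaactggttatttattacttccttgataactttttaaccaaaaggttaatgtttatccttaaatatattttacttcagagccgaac
A1bg held a STAT core (TTCCAGGAA) 84 to 76 bases before the start and a Cux core, read as ATTGAT on this strand, 150 to 145 bases before it. Sult3a1 held a STAT core (TTCTTTGAA) 109 to 101 bases before the start and a Cux core (ATTGAT) 74 to 69 bases before it, and in neither gene did the matches overlap. The window of Hao3 held neither core. Both Cux2 windows in the table, one for each of 2 annotated starts on the minus strand, at chr5:122049852-122050101 and chr5:122047826-122048075, also held neither. A forkhead core, TGTTTAC, was not found in any of these 5 windows. Of 32851 promoter windows of the same length, 7.02% held the STAT core, 6.72% the Cux core and 3.17% the forkhead core. These matches describe letters and do not show that a factor binds there.

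In WT livers, which chose the genes, the levels in females differed widely between the 5 genes, and those in males were low. By mean RPKM in female WT, A1bg ranked 145th and Sult3a1 217th among all genes, followed by Hao3 (2344th), Atp6v0d2 (3371st) and Cux2 (5581st). Fitted female minus male differences on the log2(RPKM + 1) scale were 7.22 for A1bg, 6.62 for Sult3a1, 2.79 for Hao3, 2.0 for Atp6v0d2 and 1.54 for Cux2. As background, 6.72% of the 10568 tested genes were called higher in WT females, and nothing is read from the members' differences because they decided the choice. Genes were tested where at least 3 libraries had 0.5 RPKM or more. All 5 members passed through their female libraries, so that a difference between the sexes was built into passing. Only Atp6v0d2 reached 0.5 RPKM in any male library.

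**Figure D1:**
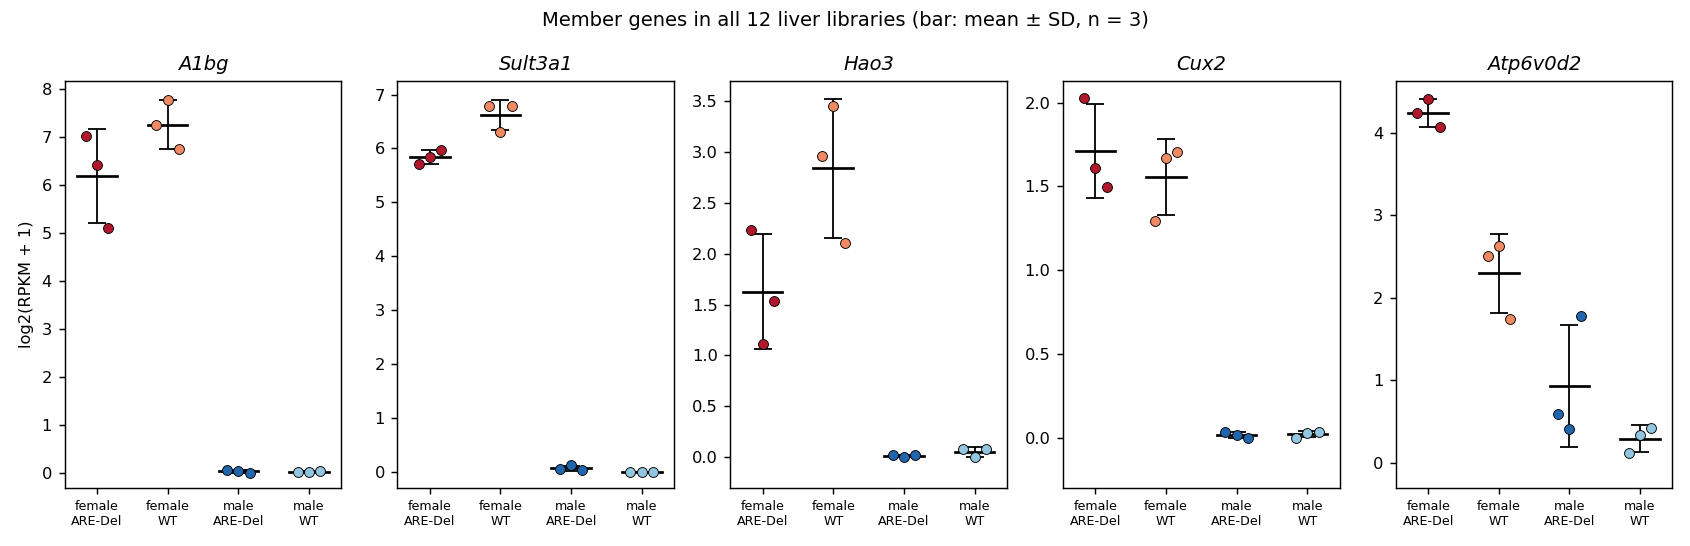
Levels of the 5 genes in each of 12 libraries, as log2(RPKM + 1), in female ARE-Del, female WT, male ARE-Del and male WT livers. Points are libraries and bars give mean ± SD (n = 3); A1bg, Sult3a1, Hao3 and Cux2 lie near 0 in all 6 male libraries, while Atp6v0d2 reaches 2.43 RPKM in 1 male ARE-Del library.

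The first question was whether ARE-Del females also exceeded ARE-Del males, in libraries that the rule did not use. They did for all 5 genes, and in each the 3 female ARE-Del libraries lay above the 3 male ARE-Del libraries. All 5 of 5 were called higher in females by limma (adjusted p below 0.05 over all tested genes), and 5 of 5 also with no filter. As background, 16.4% of tested genes were called higher in ARE-Del females, and 26.7% had libraries that did not overlap in that direction. Tested genes at large did not have to pass through female libraries as the members did. The members' share is therefore not read against these shares.

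Cux2, the transcription factor, had 3.08, 2.05 and 1.82 RPKM in female ARE-Del, 1.45, 2.18 and 2.26 RPKM in female WT, 0.0215, 0.0106 and 0 RPKM in male ARE-Del and 0, 0.0179 and 0.0246 RPKM in male WT livers. The 6 female libraries lay together and far above the males, and the 2 female groups overlapped. In ARE-Del mice the female minus male difference was 1.70 ± 0.13 (SE) on the log2(RPKM + 1) scale (limma adjusted p = 4.7e-06). Adding 1 RPKM shrinks the differences of low genes such as Cux2, so their log2 ratios would be larger.

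Sult3a1, the sulfotransferase, had 51.1, 56.4 and 61.5 RPKM in female ARE-Del, 109, 77.8 and 110 RPKM in female WT and 0.0287, 0.0847 and 0.0240 RPKM in male ARE-Del livers. In the 3 male WT libraries it was listed at 0. No female ARE-Del library reached the lowest female WT library, and the highest male library lay far below both. Sult3a2 is a close copy whose reads could have been counted with it. The female minus male difference in ARE-Del mice was 5.77 ± 0.12 (limma adjusted p = 1.3e-11), the smallest SE of the 5 genes.

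Hao3, the peroxisomal oxidase, had 3.71, 1.16 and 1.90 RPKM in female ARE-Del, 6.77, 9.95 and 3.29 RPKM in female WT, 0.0160, 0 and 0.0134 RPKM in male ARE-Del and 0.0551, 0 and 0.0549 RPKM in male WT livers. The highest female ARE-Del library just exceeded the lowest female WT library, and every male library was close to 0. Its female minus male difference in ARE-Del mice was 1.61 ± 0.30 (limma adjusted p = 0.00241).

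A1bg, the plasma glycoprotein, had 128, 84.5 and 33.5 RPKM in female ARE-Del, 152, 217 and 106 RPKM in female WT, 0.0545, 0.0269 and 0 RPKM in male ARE-Del and 0.0235, 0.0176 and 0.0312 RPKM in male WT livers. The female groups overlapped, since female ARE-Del 1 lay above female WT 3, and the lowest female library exceeded the highest male library 614-fold. The difference in ARE-Del mice was 6.14 ± 0.37 (limma adjusted p = 5.6e-07).

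Atp6v0d2, the proton pump subunit, had 18.0, 20.3 and 15.8 RPKM in female ARE-Del, 4.71, 5.20 and 2.36 RPKM in female WT, 0.509, 0.334 and 2.43 RPKM in male ARE-Del and 0.0858, 0.270 and 0.342 RPKM in male WT livers. It was the only member with a male library above a female one: male ARE-Del 3 slightly exceeded female WT 3. The female minus male difference in ARE-Del mice was 3.31 ± 0.31 (limma adjusted p = 2.9e-05). When the library labelled female ARE-Del 2 was left out, the differences between the sexes in ARE-Del mice were 6.02 for A1bg, 5.77 for Sult3a1, 1.87 for Hao3, 1.75 for Cux2 and 3.23 for Atp6v0d2, and limma called all 5 (highest adjusted p 0.00189).

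Spread within a group also set the genes apart. In female ARE-Del livers the SD was 9.18% of the mean for Sult3a1, 12.3% for Atp6v0d2 and 28.8% for Cux2, but 57.8% for A1bg and 58.1% for Hao3. In female WT livers it was 18.5% for Sult3a1, 22.8% for Cux2, 35.4% for A1bg, 37.1% for Atp6v0d2 and 49.9% for Hao3. Among female WT libraries, A1bg, Hao3 and Atp6v0d2 were highest in replicate 2 and lowest in replicate 3, while Cux2 was highest in replicate 3 and Sult3a1 lowest in replicate 2.

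The second question was how each gene differed between ARE-Del and WT livers of 1 sex. In females A1bg, Sult3a1 and Hao3 were called lower and Atp6v0d2 higher, while Cux2 was not called; in males none of the 5 was called. The female and male WT libraries are those that chose the genes, so these differences and their p-values are not independent of the choice: a gene chosen for high female WT values is more likely to be lower in ARE-Del females. The 2 sexes' values are given side by side. In all, 25.8% of tested genes were called higher and 5.53% lower in ARE-Del females than in WT females, and 1 of 5 members was called higher and 3 of 5 lower; for the reason given, nothing is read from the members' share. Libraries of 2 of the 5 members, Sult3a1 and Atp6v0d2, did not overlap between ARE-Del and WT females, as was so for 43.5% of tested genes in either direction. In males 19.5% of tested genes were called higher and 2.04% lower in ARE-Del, and 0 of 5 members were called by limma. An unadjusted p below 0.05 was also found for 0 of 5. Apart from Atp6v0d2, the members were at or below 0.0847 RPKM in every male library. Adding 1 RPKM left them almost no room to differ, so their missing male calls do not show that levels were equal. For each gene the fit shared 1 estimate of spread between the 4 groups, to which male values near 0 added little. The SE of their male differences therefore rests mostly on female libraries, and their female p-values draw on male libraries with almost no spread. With only the 2 groups compared, the limma adjusted p in females was 0.123 for A1bg, 0.0423 for Hao3 and 0.00614 for Sult3a1. In bulk liver RNA, fewer cells that express a gene and less RNA per cell cannot be told apart.

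**Figure D2:**
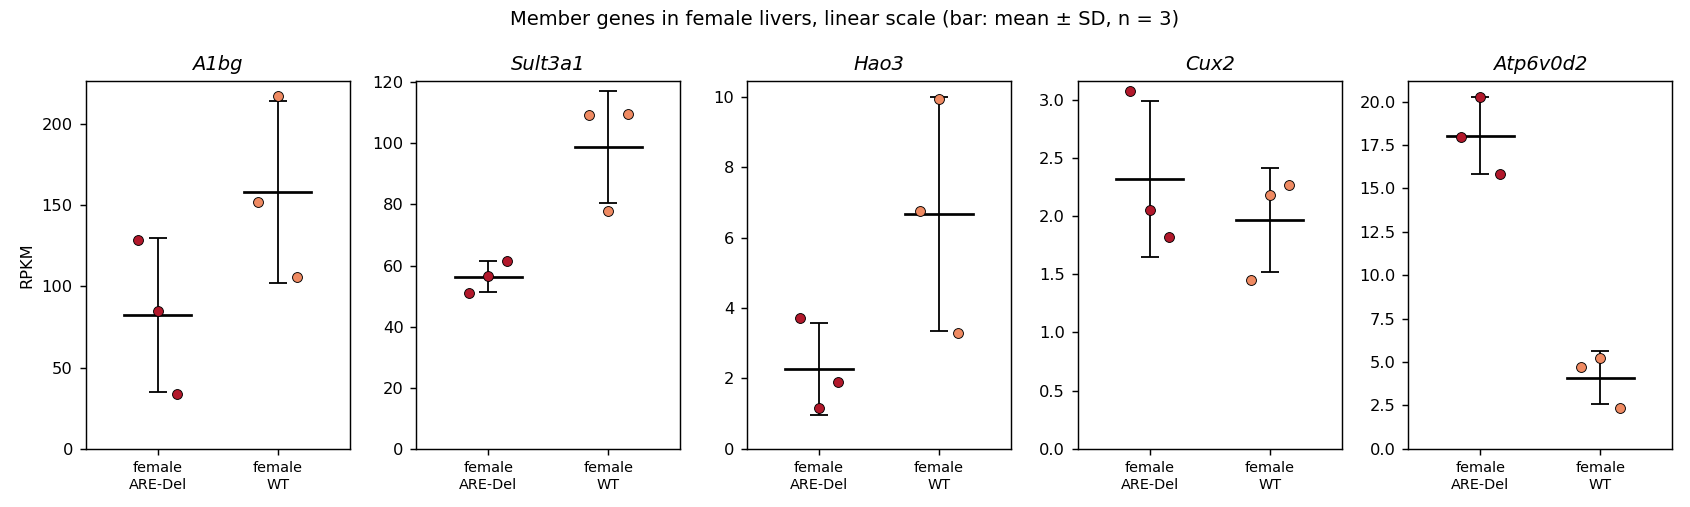
RPKM of the 5 genes in female ARE-Del and female WT livers on linear axes that start at 0. Points are libraries and bars give mean ± SD (n = 3); Sult3a1 averages 56.4 RPKM in ARE-Del and 98.9 RPKM in WT without overlap, A1bg and Hao3 are lower on average with overlap, and Atp6v0d2 averages 18.0 RPKM in ARE-Del and 4.09 RPKM in WT.

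Sult3a1 averaged 56.4 ± 5.17 RPKM in female ARE-Del and 98.9 ± 18.2 RPKM in female WT livers (SD, n = 3), a ratio of 0.57. The fitted difference was -0.79 ± 0.12 (limma adjusted p = 2.3e-04), and it was called under every alternative run, with 1 library left out in turn included. All of these fits, for this and the other members, used female WT libraries that chose the genes, so none removes that dependence. In males it was listed at 0 in every WT library, so no fold is given, and it averaged 0.0458 ± 0.0338 RPKM in male ARE-Del livers. Its fitted difference there was 0.06 ± 0.12 (limma adjusted p = 0.733). With a pseudocount of 0.1 in place of 1 that difference was 0.52 and was called (limma adjusted p = 0.0367).

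Hao3 averaged 2.26 ± 1.31 RPKM in female ARE-Del and 6.67 ± 3.33 RPKM in female WT livers (SD, n = 3), a ratio of 0.338. The fitted difference was -1.21 ± 0.30 (limma adjusted p = 0.00827), and the highest adjusted p over the alternatives was 0.0423. In males the difference was -0.04 ± 0.30 (limma adjusted p = 0.943), with all 6 libraries at or below 0.0551 RPKM.

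A1bg averaged 82.1 ± 47.4 RPKM in female ARE-Del and 158 ± 56 RPKM in female WT livers (SD, n = 3), a ratio of 0.519. The fitted difference was -1.07 ± 0.37 (limma adjusted p = 0.0443). This call held in 2 of 12 fits that left out 1 library, in which the difference ran from -1.49 to -0.54 and the adjusted p from 0.00603 to 0.16. Without female ARE-Del 3, the lowest library, the difference was -0.54 (limma adjusted p = 0.137), and without female WT 2, the highest, it was -0.82 (limma adjusted p = 0.16). In males A1bg was near 0 in both genotypes and its difference was 0.00 ± 0.37 (limma adjusted p = 0.996).

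Cux2 averaged 2.32 ± 0.668 RPKM in female ARE-Del and 1.97 ± 0.448 RPKM in female WT livers (SD, n = 3). The difference was 0.16 ± 0.13 in females (limma adjusted p = 0.384) and 0.00 ± 0.13 in males (limma adjusted p = 0.983). It was not called in either sex under any alternative, in which the female value ran from -0.02 to 0.26.

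Atp6v0d2 averaged 18.0 ± 2.22 RPKM in female ARE-Del and 4.09 ± 1.52 RPKM in female WT livers (SD, n = 3), a ratio of 4.41. The fitted difference was 1.95 ± 0.31 (limma adjusted p = 4.0e-04). In males it averaged 1.09 ± 1.16 RPKM in ARE-Del and 0.233 ± 0.132 RPKM in WT livers, with a difference of 0.63 ± 0.31 that was not called (limma adjusted p = 0.165). The ratio of means was thus 4.41 in females and 4.69 in males, while the fitted difference, taken after adding 1 RPKM, was the larger in females. That male value rested on 1 library: without male ARE-Del 3 the ratio was 1.81 and the difference 0.21 (limma adjusted p = 0.542). Removal of the library labelled female ARE-Del 2 gave female differences of -1.19 for A1bg (limma adjusted p = 0.0559, no longer called), -0.95 for Hao3 (0.0357), -0.79 for Sult3a1 (0.00112), 0.21 for Cux2 (0.313) and 1.86 for Atp6v0d2 (0.00227).

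The difference between the sexes in the genotype effect, female minus male, was -1.08 ± 0.52 for A1bg, -1.17 ± 0.42 for Hao3, -0.85 ± 0.16 for Sult3a1, 0.16 ± 0.18 for Cux2 and 1.31 ± 0.43 for Atp6v0d2 (SE). With a pseudocount of 0.1 in place of 1 it was 0.70 for Atp6v0d2 and -1.32 for Sult3a1, so its size depends on the added constant. It was not tested, because it contains the WT difference that chose the genes. In male WT livers the first 3 of these genes were at 0 to 0.0551 RPKM.

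**Figure D3:**
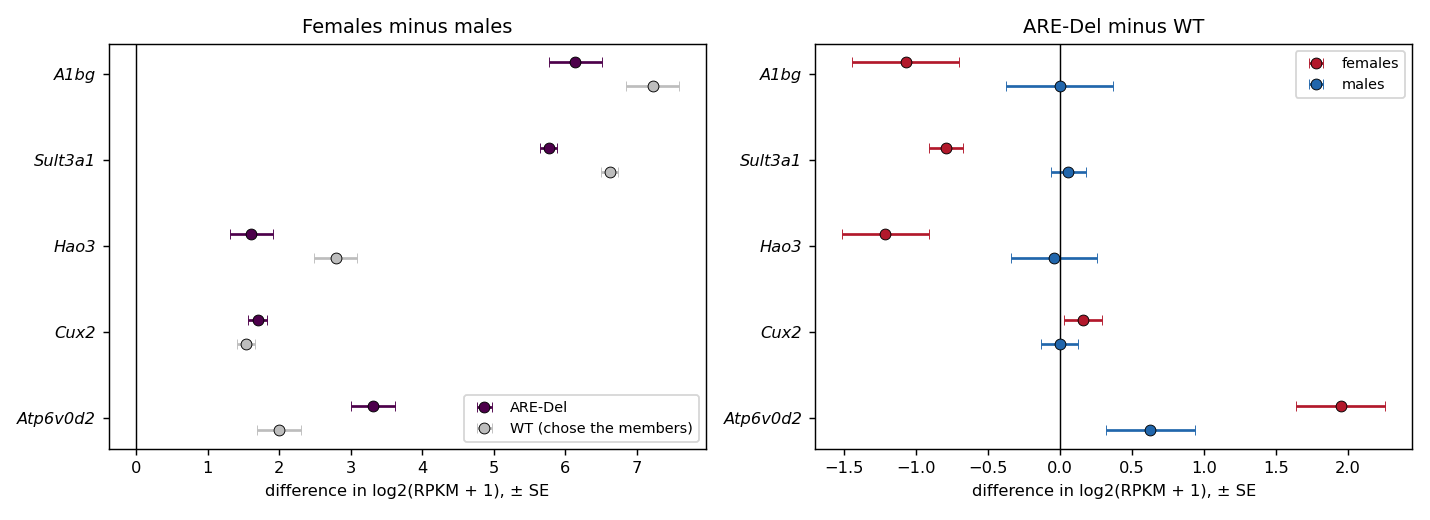
Fitted differences in log2(RPKM + 1) with their SE for the 5 genes, females minus males at the left (ARE-Del, and WT, which chose the genes) and ARE-Del minus WT at the right (females, males). A1bg, Sult3a1 and Hao3 lie below 0 and were called in females and were not called in males, Cux2 lies near 0 in both, and Atp6v0d2 lies at 1.95 in females and 0.63 in males, values that depend on the 1 RPKM added.

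Genes with the most similar pattern were found by the root mean square difference in log2(RPKM + 1) over the 12 libraries. Each gene was centred on its own mean, and smaller is more alike. All 12 libraries entered this choice, so a neighbour tends to share the group differences of its member. The calls and p-values of neighbours, here and for the other members, therefore only describe these genes. For Sult3a1 the nearest were Cyp2b13 (0.243) and Cyp2b9 (0.434), against a median of 3.10 over all tested genes. Cyp2b13 averaged 44.2 ± 9.38 RPKM in female ARE-Del and 96.0 ± 3.39 RPKM in female WT livers, and its difference was -1.12 ± 0.12 (limma adjusted p = 2.0e-05). Cyp2b9 also fell, by 0.79 ± 0.20 (limma adjusted p = 0.00971). For A1bg they were Cyp2b13 (0.601), Sult3a1 (0.609) and Cyp2b9 (0.692), against a median of 3.38. A1bg and Sult3a1 thus shared both cytochromes among their nearest genes.

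For Hao3 the nearest genes were Nt5e (0.410), which encodes a cell-surface nucleotidase, the organic anion transporter gene Slco1a4 (0.451) and AB056442 (0.506), against a median of 1.24. All 3 were lower in ARE-Del females, with differences of -0.41 ± 0.09 for Nt5e (limma adjusted p = 0.00474), -1.30 ± 0.13 for Slco1a4 (1.2e-05) and -1.02 ± 0.11 for AB056442 (2.7e-05). Slco1a4 averaged 10.7 RPKM in female ARE-Del, 27.8 RPKM in female WT, 2.96 RPKM in male ARE-Del and 5.42 RPKM in male WT livers, and unlike Hao3 it was also called lower in ARE-Del males, by -0.70 ± 0.13 (limma adjusted p = 0.00284).

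For Cux2 the nearest genes were Trim24 (0.242), a nuclear receptor cofactor gene, Cyp2c68 (0.254) and Cyp2c39 (0.277), against a median of 0.815. None of these 3 was called between ARE-Del and WT in either sex, and Trim24 differed by -0.03 ± 0.14 in females (limma adjusted p = 0.879). For Atp6v0d2 the nearest were Nipal1, listed as Npal1 (0.642), Abcd2 (0.740) and Rgs16 (0.740), against a median of 1.53, a looser match than for the other members relative to that median. Rgs16, a regulator of G-protein signalling, averaged 10.6 RPKM in female ARE-Del, 3.70 RPKM in female WT, 3.25 RPKM in male ARE-Del and 0.506 RPKM in male WT livers, but its difference in females, 1.24 ± 0.49, was not called (limma adjusted p = 0.0721), though it was without the library labelled female ARE-Del 2 (1.59, limma adjusted p = 0.0403). With all libraries, Nipal1 (0.67 ± 0.38, limma adjusted p = 0.206) and Abcd2 (0.11 ± 0.27, limma adjusted p = 0.791) were not called in females either, unlike Atp6v0d2. Nipal1 was called higher in ARE-Del males, by 1.55 ± 0.38 (limma adjusted p = 0.0135), where Atp6v0d2 was not.

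The members were set beside a list of 18 other tested female-biased liver genes. The list was made with earlier results of these data known, and 17 of the 18 were called higher in WT females. Its counts against female WT livers, like those of the members, may therefore not be independent of the choice. Over all tested genes, 16.4% were called higher in ARE-Del females than in ARE-Del males. Between ARE-Del and WT females, 25.8% of all tested genes were called higher and 5.53% lower. In ARE-Del mice 16 of the 18 were called higher and 0 lower in females, with a median difference of 2.62, against 0.04 over all tested genes. Between ARE-Del and WT females, 0 of 18 were called higher and 6 lower, with a median of -0.19 against 0.09 over all tested genes. Without the library labelled female ARE-Del 2, 16 were called higher between the sexes and 5 lower between the female genotypes. Of its 3 most abundant entries, Cyp2a4 had 194 ± 21.9 RPKM in female ARE-Del and 171 ± 28 RPKM in female WT livers and was not called (0.19 ± 0.16, limma adjusted p = 0.388). Cyp3a41a had 186 ± 29.5 RPKM in female ARE-Del and 527 ± 366 RPKM in female WT livers and also was not called (-1.18 ± 0.44, limma adjusted p = 0.0574). The joint entry for Cyp2c40 and Cyp2c67 had 197 ± 20.2 RPKM in female ARE-Del and 205 ± 47.1 RPKM in female WT livers (-0.04 ± 0.16, limma adjusted p = 0.87). In males that entry was called higher in ARE-Del, by 1.03 ± 0.16 (limma adjusted p = 8.2e-04), and 2 of 18 genes were called higher and 0 lower. That male count was 6 with a pseudocount of 0.1, 4 with 0.5 and 1 with no filter, and it was 4 without male ARE-Del 1 and 1 without male WT 1. These P450 genes belong to families of near-identical copies, so their reads may be shared. Summed over the 19 listed genes, female-biased transcripts ran from 790 to 931 RPKM in female ARE-Del, 903 to 1875 RPKM in female WT, 122 to 156 RPKM in male ARE-Del and 68.4 to 86.0 RPKM in male WT livers.

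**Figure D4:**
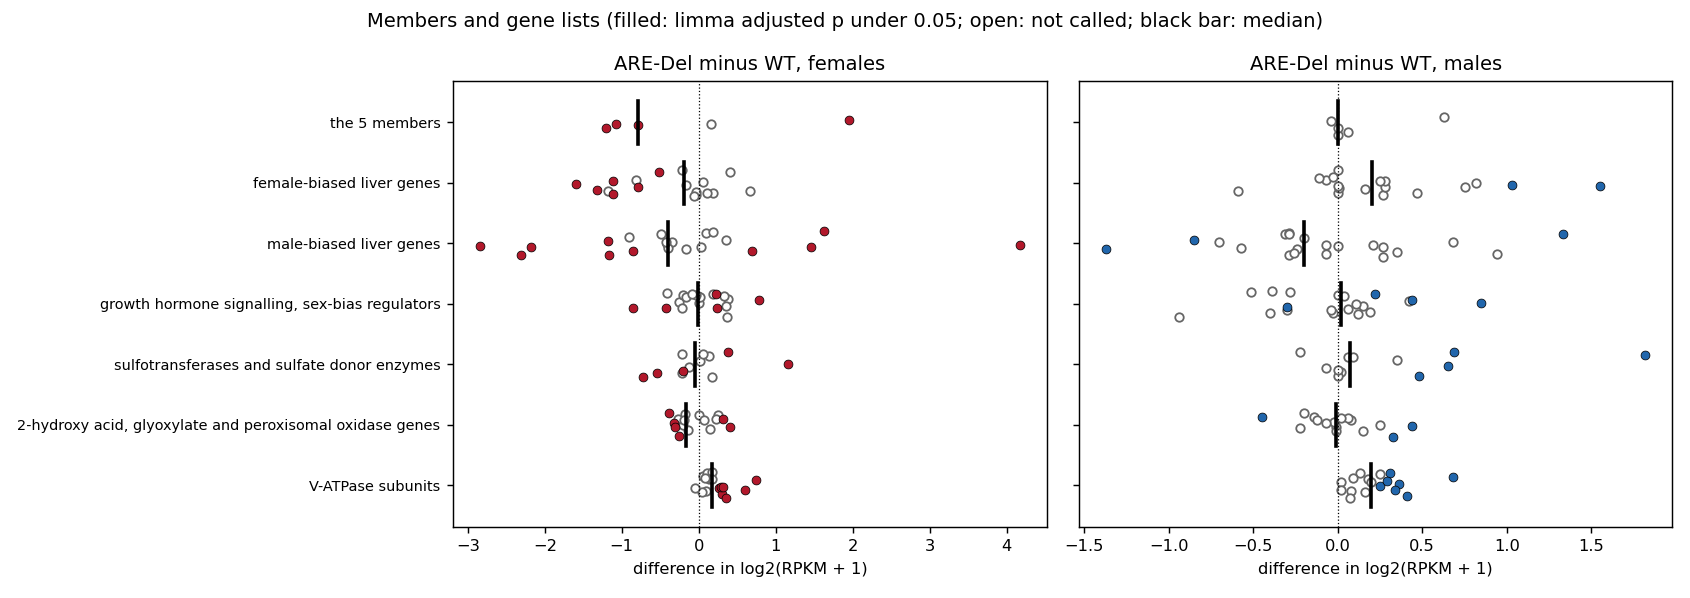
Differences between ARE-Del and WT in log2(RPKM + 1) for the 5 members and for tested genes of 6 lists, in females at the left and males at the right. Each point is a gene, filled where limma called it, and black bars are medians; in females 3 members lie below 0 and Atp6v0d2 at 1.95, while 0 of 5 members are filled in males.

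Of 21 tested male-biased genes, 21 were lower in ARE-Del females than in ARE-Del males (median -2.73). All 21 were also called lower in WT females than in WT males, and this list too was made with earlier results known. Between ARE-Del and WT females 4 were called higher and 6 lower (median -0.40), and in males 1 higher and 2 lower (median -0.20). The most abundant was Mup1, a major urinary protein gene, at 183 ± 36.1 RPKM in female ARE-Del and 1327 ± 346 RPKM in female WT livers, a difference of -2.84 ± 0.22 (limma adjusted p = 1.6e-06). Serpina1e, a protease inhibitor gene, moved the other way, at 1173 ± 222 RPKM in female ARE-Del and 67.3 ± 27.7 RPKM in female WT livers (4.17 ± 0.38, limma adjusted p = 4.8e-06). Both belong to families of near-identical copies. Without the library labelled female ARE-Del 2 the counts of 21, 4 and 6 did not change.

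Upstream of the members in growth hormone signalling, 20 genes were tested. Between ARE-Del and WT females 3 were called higher and 2 lower (median -0.01), and in males 3 higher and 1 lower (median 0.02). With median-of-ratios scaling the counts were 2 higher and 4 lower in females and 1 higher and 3 lower in males. Without the library labelled female ARE-Del 2, 4 were higher and 2 lower in females. The growth hormone receptor gene Ghr was lower in both sexes, at 20.3 ± 2.06 RPKM in female ARE-Del and 27.8 ± 3.27 RPKM in female WT livers (-0.43 ± 0.09, limma adjusted p = 0.00372). In males Ghr had 25.6 ± 0.659 RPKM in ARE-Del and 31.8 ± 0.997 RPKM in WT livers (-0.30 ± 0.09, limma adjusted p = 0.0363). Stat5b, the transducer of the hormone signal, had 6.23 ± 0.448 RPKM in female ARE-Del and 5.19 ± 0.202 RPKM in female WT livers (0.22 ± 0.07, limma adjusted p = 0.0317), and was not called in males (0.19 ± 0.07, limma adjusted p = 0.077). Stat5a, the repressor gene Bcl6, the hepatocyte factor gene Onecut1 and the growth hormone target Igf1 were not called in either sex. Onecut1 varied widely, at 4.46 ± 3.34 RPKM in male ARE-Del and 8.19 ± 3.46 RPKM in male WT livers.

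The estrogen receptor gene Esr1 was higher in ARE-Del females than in ARE-Del males, at 2.45 ± 0.313 RPKM in females and 0.857 ± 0.0369 RPKM in males (0.89 ± 0.10, limma adjusted p = 1.0e-04), and was not called between ARE-Del and WT in either sex. Cux1, the paralog of Cux2, listed as Cutl1, had 0.955 ± 0.0947 RPKM in female ARE-Del and 1.14 ± 0.0428 RPKM in male ARE-Del livers and was not called between the sexes there (-0.13 ± 0.06, limma adjusted p = 0.151).

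Relatives of the enzymes moved in both directions between the sexes. Of 12 other tested sulfotransferase and sulfate donor genes, 4 were called higher and 2 lower in ARE-Del females than in ARE-Del males (median 0.24). Between ARE-Del and WT females 2 were called higher and 3 lower (median -0.05), and in males 4 higher and 0 lower (median 0.07). Sult1a1, a phenol sulfotransferase gene, was called higher in ARE-Del males, at 118 ± 26.3 RPKM in ARE-Del and 72.5 ± 16.7 RPKM in WT livers (0.69 ± 0.19, limma adjusted p = 0.0226). So was Papss2, which makes the donor PAPS, at 46.0 ± 8.55 RPKM in ARE-Del and 28.9 ± 5.04 RPKM in WT livers (0.65 ± 0.16, limma adjusted p = 0.0137). In females neither of these was called, but the most abundant gene of the list, 2810007J24Rik, a sulfotransferase gene, was lower in ARE-Del, at 90.4 ± 21 RPKM in ARE-Del and 148 ± 25.9 RPKM in WT livers (-0.72 ± 0.17, limma adjusted p = 0.00553). Sult5a1, named after its values were seen, was higher in ARE-Del in both sexes, by 1.16 ± 0.11 in females (limma adjusted p = 5.5e-06) and by 1.82 ± 0.11 in males (limma adjusted p = 4.4e-07). When the library labelled female ARE-Del 2 was left out, 3 genes were called higher and 2 lower between the sexes, and 2 higher and 2 lower between the female genotypes.

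Hao1, the glycolate oxidase gene and paralog of Hao3, ran opposite to it between the sexes. It had 34.8 ± 3.51 RPKM in female ARE-Del and 71.4 ± 7.09 RPKM in male ARE-Del livers (-1.02 ± 0.11, limma adjusted p = 8.5e-05). Between ARE-Del and WT it was not called in females (-0.27 ± 0.11, limma adjusted p = 0.0796) or males (-0.22 ± 0.11, limma adjusted p = 0.168). Of 16 genes of 2-hydroxy acid, glyoxylate and peroxisomal oxidation, 2 were called higher and 4 lower in ARE-Del than in WT females (median -0.16), and the split was not stable: it was 0 higher and 9 lower when libraries were scaled by median-of-ratios, and 3 higher and 2 lower without the library labelled female ARE-Del 2. Cat, the peroxisomal catalase gene, had 591 ± 75.8 RPKM in female ARE-Del and 765 ± 44.4 RPKM in female WT livers (-0.38 ± 0.10, limma adjusted p = 0.0111).

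Other subunits of the proton pump had smaller fitted differences than Atp6v0d2 between ARE-Del and WT females. Of 17 tested V-ATPase genes, 7 were called higher and 0 lower in ARE-Del than in WT livers in each sex, with medians of 0.17 in females and 0.20 in males, against 0.09 and 0.10 over all tested genes. With median-of-ratios scaling 5 were called higher and 1 lower in females, and 4 higher and 0 lower in males; leaving out the library labelled female ARE-Del 2 kept both counts at 7. Atp6v1g1, a subunit of the catalytic sector, had 21.0 ± 0.576 RPKM in female ARE-Del and 17.0 ± 1.1 RPKM in female WT livers (0.29 ± 0.07, limma adjusted p = 0.00798). Atp6v0c, which forms the proton-carrying ring, had 28.4 ± 1.84 RPKM in female ARE-Del and 23.6 ± 2.76 RPKM in female WT livers (0.26 ± 0.09, limma adjusted p = 0.0376). Atp6v0d1, the widely expressed partner of the d2 subunit gene, had 9.55 ± 0.521 RPKM in female ARE-Del, 8.82 ± 1.01 RPKM in female WT, 9.11 ± 0.718 RPKM in male ARE-Del and 8.97 ± 0.48 RPKM in male WT livers and was called in no comparison. Atp6v0d2 thus exceeded Atp6v0d1 in RPKM in female ARE-Del livers, whereas it lay below it in the other 3 groups.

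Macrophage markers were higher in ARE-Del livers of both sexes. Atp6v0d2 was called higher in females and was not called in males. Its ratio of means, ARE-Del over WT, was 4.41 in females and 4.69 in males, the latter resting on 1 library. Of 12 Kupffer cell markers, 10 were called higher and 1 lower in ARE-Del females (median 1.93), and 10 higher and 0 lower in ARE-Del males (median 1.62). Their summed level was 612 to 731 RPKM in female ARE-Del, 127 to 219 RPKM in female WT, 342 to 414 RPKM in male ARE-Del and 89.2 to 146 RPKM in male WT livers. Of 8 tested monocyte and macrophage markers, 6 were called higher and 0 lower in ARE-Del in each sex (3 higher in males with quantile scaling), and the summed level of all 12 found was 173 to 204, 25.2 to 37.3, 110 to 129 and 20.8 to 31.8 RPKM in the same 4 groups. The lysosomal macrophage gene Cd68 had 22.7 ± 1.76 RPKM in female ARE-Del and 5.82 ± 1.71 RPKM in female WT livers (1.83 ± 0.20, limma adjusted p = 1.9e-05). Male ARE-Del libraries had higher sums of both lists than female WT libraries, with no overlap. Atp6v0d2 was at 0.334 to 2.43 RPKM in male ARE-Del and 2.36 to 5.20 RPKM in female WT livers. Without the library labelled female ARE-Del 2, 10 Kupffer markers were called higher and 1 lower in ARE-Del females, and 7 of 7 tested monocyte and macrophage markers were called higher. Over all tested genes, 25.8% were called higher in ARE-Del females and 19.5% in ARE-Del males. Low monocyte and macrophage markers could pass the filter through ARE-Del libraries, so their counts are not independent of it. The part of these cells in the rise of Atp6v0d2 was not tested.

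**Figure D5:**
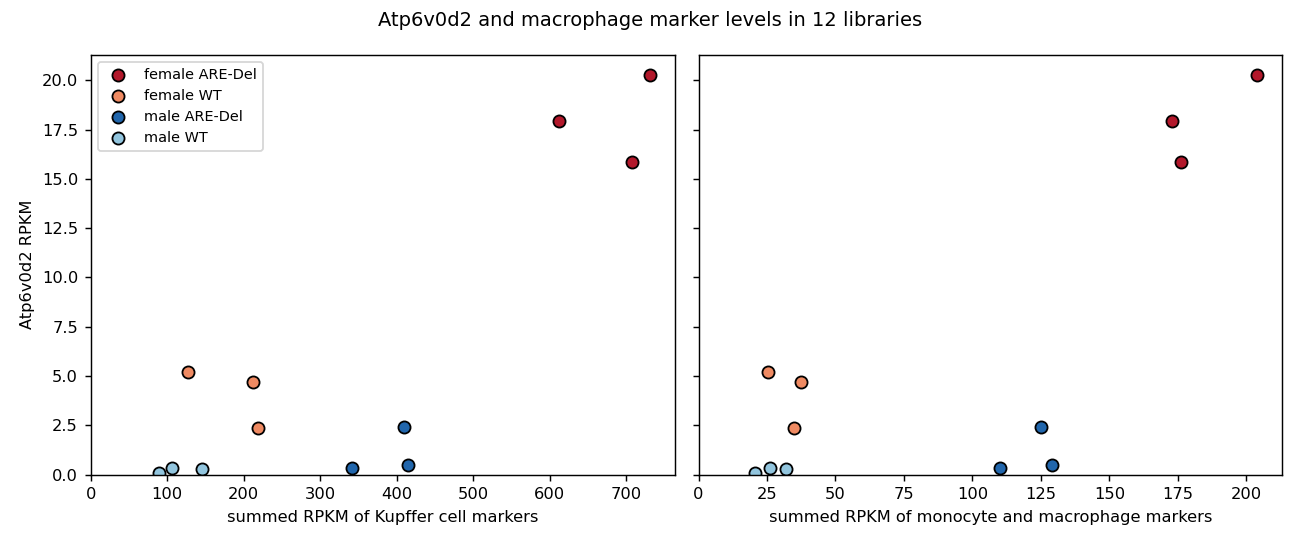
Atp6v0d2 in RPKM (vertical axis) against the summed RPKM of Kupffer cell markers (left) and of monocyte and macrophage markers (right) in 12 libraries, 1 point each. Female ARE-Del libraries are highest on both axes, and male ARE-Del libraries have larger marker sums than female WT libraries at Atp6v0d2 levels of 0.334 to 2.43 RPKM.

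Markers of osteoclasts and fused macrophages, the cells for which Atp6v0d2 is best known, were below 1 RPKM in every library apart from Acp5 and Nfatc1. Of 9 such genes 2 were tested, and their summed level was 28.7 to 31.8 RPKM in female ARE-Del, 22.3 to 26.8 RPKM in female WT, 25.2 to 27.6 RPKM in male ARE-Del and 22.6 to 24.8 RPKM in male WT livers. Most of that sum was Acp5, at 27.6 ± 1.76 RPKM in female ARE-Del and 23.2 ± 2.11 RPKM in female WT livers (0.24 ± 0.08, limma adjusted p = 0.0416), a call that was lost with median-of-ratios scaling, with quantile scaling and without the library labelled female ARE-Del 2 (0.20, limma adjusted p = 0.128). Oscar and Calcr, receptor genes of osteoclasts, were at 0 in the 3 female ARE-Del libraries. The protease gene Ctsk averaged 0.542 ± 0.263 RPKM in female ARE-Del and 0.130 ± 0.0383 RPKM in female WT livers, and was not tested, since 2 of 12 libraries reached 0.5 RPKM.

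Hepatocyte markers were read beside A1bg, Sult3a1 and Hao3. Of 12 such genes, 2 were called higher and 1 lower in ARE-Del than in WT females (median 0.13), or 2 higher and 3 lower with median-of-ratios scaling (median -0.03), and without the library labelled female ARE-Del 2 the counts were 2 and 1. Their summed level, most of it Alb, was 43070 to 46978 RPKM in female ARE-Del and 36097 to 37791 RPKM in female WT livers. Alb itself was not called (0.30 ± 0.13, limma adjusted p = 0.107). Of 12 markers of T, NK and B cells found, 7 were tested. In ARE-Del females 6 of the 7 were called higher and 0 lower, or 7 of 7 higher without the library labelled female ARE-Del 2, against 25.8% of all tested genes called higher. Summed over the 12, these markers ran from 9.67 to 15.7 RPKM in female ARE-Del and 2.46 to 3.42 RPKM in female WT livers. Genes this low could pass the filter through the ARE-Del libraries in which they were high, so these counts are not independent of the filter. The part of these cells in the members' differences was not tested.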

How the data were processed

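Total liver RNA was extracted with Trizol and sequenced after an Illumina TruSeq preparation, per the labels' protocols. The authors deposited RPKM values for 12 libraries. Trimmomatic 0.30, TopHat2 2.0.8, Partek and GenomeStudio 6.6 and the mm9 build are named in the submitters' processing notes; for read counting and strand, the settings were not given in the sources used here. Read totals are unknown; relative depth, from the steps of low values, was 0.909 to 1.45.

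Genes with at least 0.5 RPKM in at least 3 libraries (10568) were fitted as log2(RPKM + 1) with limma 3.58.1 (R 4.3.3), with a mean for each of the 4 groups (eBayes with trend). P-values were adjusted by Benjamini-Hochberg over all tested genes at 0.05. The fit was tested on simulated data. Errors are SD for RPKM and SE for log2 differences.

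The members and the gene lists were chosen with earlier results of these data known. Named genes are the members, their family members and regulators, the 3 most abundant genes of each list and the 3 nearest to each member. Sult3a2 had no matching entry and Prlr shared an entry with another gene, so neither was used. Some genes that this rule names are not reported here. Alternatives were other pseudocounts, filters, scalings and model choices, a replicate block and leaving out each library. Upstream sequence came from RefSeq by gene symbol, with windows for 4 of the 5 members. Figures were drawn with matplotlib 3.10.9, from tables made with pandas 2.3.3 and numpy 2.4.6 in Python 3.11.15.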

Additional observations from a re-analysis of the deposited data

Results flagged for a closer look

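Sult3a1 was picked out because the ARE-Del libraries of the sexes lay on opposite sides of their WT means. All 3 female ARE-Del libraries (51.1, 56.4 and 61.5 RPKM) lay below the female WT mean of 98.9 RPKM, and all 3 male ARE-Del libraries (0.0287, 0.0847 and 0.0240 RPKM) lay above the male WT libraries, which were all listed at 0. The male difference was 0.06 ± 0.12 (limma adjusted p = 0.733), so no direction is given for males. The genotype effect in females minus that in males was -0.85 ± 0.16 (SE) on the log2(RPKM + 1) scale. This difference was not tested, because the WT libraries chose the gene, and the male levels are at most 0.0847 RPKM.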

How the results depend on the processing

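Results were recomputed under 9 alternatives and with each of 12 libraries left out in turn. All 5 members were called higher in ARE-Del females than in ARE-Del males in all of these fits. Between ARE-Del and WT females 3 or 4 members were called; the changes were those of A1bg, whose adjusted p was 0.0546 with a pseudocount of 0.1, 0.104 with no filter on low values and 0.123 with only the 2 groups compared. In males 0 members were called except with a pseudocount of 0.1, which called 1, Sult3a1. The cause was not tested.

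Leaving out 1 library gave 1367 to 2494 genes called between ARE-Del females and males (2370 with all), 2297 to 3272 between ARE-Del and WT females (3306), 1259 to 2481 between ARE-Del and WT males (2272) and 525 to 1116 between WT females and males (1031). The lowest counts came without female ARE-Del 3 (1367) and male ARE-Del 2 (1449), without male WT 1 (1259), and without male WT 1 (525) and female WT 1 (642).

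Scaling moved the direction of calls. As deposited, 73.2% of genes called between ARE-Del females and males were higher in females, against 58.7% with median-of-ratios and 46.4% with quantile scaling. The share called higher in ARE-Del was 82.3%, 52.3% and 39.3% in females and 90.5%, 55.7% and 44.5% in males. The share higher in WT females was 68.9%, 51.4% and 42.2%. The median log2 difference of all genes between ARE-Del and WT was 0.09, -0.01 and -0.07 in females and 0.10, -0.01 and -0.05 in males. No member called changed direction.

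Same-numbered libraries were not treated as paired in the main fit. Correlations of their deviations ran from -0.291 to 0.245 over 18 pairs, which cannot show whether they were paired. With a replicate block 2063, 3019, 2024 and 845 genes were called in the 4 comparisons above, and 5, 4 and 0 members in the first 3. RPKM without read totals gives no counting error for values near 0.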
